A study of Homo sapiens with 24 samples.

Results

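Polyamines (putrescine, spermidine and spermine) are small cations that bind RNA and that growing cells, those of the colon epithelium among them, need in quantity. Their synthesis is held in check by a feedback that runs through translation: high polyamine makes ribosomes slip into another reading frame on antizyme mRNA, and the antizyme made in this way carries ornithine decarboxylase to the proteasome. The data described here are the RNA and ribosome footprint levels of 8 genes of this circuit in colorectal cell lines. The rule that selects them uses names and Ensembl identifiers and no measured value, and all 8 were found among the 20426 genes listed in every library. They are the synthesis enzymes ODC1 (ENSG00000115758), AMD1 (ENSG00000123505), SRM (ENSG00000116649) and SMS (ENSG00000102172), the antizymes OAZ1 (ENSG00000104904) and OAZ2 (ENSG00000180304), the antizyme inhibitor AZIN1 (ENSG00000155096) and the catabolic enzyme SAT1 (ENSG00000130066). All 8 passed the filter on low counts that left 11938 genes for testing.

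The series measured 6 cell populations by ribosome profiling, with 2 libraries of ribosome-protected fragments (RPF, the footprints) and 2 of INPUT RNA for each, 24 in all. HCT116, HCT15 and SW620, established lines from human colorectal cancers (SW620 from a lymph node metastasis), were set against 841CON, which the labels give as a line of normal colon epithelium. HCT15 cells overexpressing COPS7B, a subunit of the COP9 signalosome, were set against HCT15 cells with the vector labelled PLVX, and the vector cells against parental HCT15. Every population other than the COPS7B cells is labelled WT, and all received cycloheximide, which stops elongating ribosomes, at 100 µg/mL for 10 minutes. HCT15 was grown in DMEM, HCT116 in RPMI-1640, 841CON in EMEM and SW620 in L15 without added CO2, so line and medium cannot be told apart. The labels do not say whether the COPS7B and vector cells are clones or pools, or whether the replicates are separate cultures. The p-values therefore cover only how far these libraries differ, which may be technical.

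Counts in genes ran from 1237231 to 9105954 for INPUT and from 84262 to 4679279 for RPF, the 2 shallowest being the SW620 footprint libraries (98043 and 84262). Replicate pairs were uneven. A chi-square per gene near 1 is what counting error alone gives. Both HCT116 pairs and the footprint pairs of 841CON and COPS7B cells were near it, at 1.39 to 1.70, whereas the 841CON INPUT pair reached 63.9. The parental HCT15 pairs were uneven too, at 31.0 for INPUT and 31.6 for footprints. The other pairs ran from 4.12 (SW620 footprints) to 13.4 (vector footprints). The value also grows with depth, so pairs of unlike depth cannot be ranked by it. Both 841CON INPUT libraries enter every RNA and translational efficiency comparison with a cancer line, and the 3 such comparisons share all 4 of the 841CON libraries. In bulk libraries a lower level can be fewer cells with a transcript or less of it per cell, which cannot be told apart. The marker genes of epithelial and mesenchymal cells, the level of COPS7B and the other genes of the pathway were not analysed here, because the files name genes by identifier alone.

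Sequences that bear on how these genes are known to be regulated come from RefSeq promoter windows (GRCh38.p14, from 250 bases before to 50 bases after each annotated transcript start), which held 10 windows for 7 of the 8 genes. The mRNA of AMD1 is known for a short upstream reading frame whose translation, under high polyamine, stalls ribosomes before they reach the enzyme's own frame. It lies within the first bases of the transcript, on chromosome 6 (chr6:110874792-110874821, plus strand), and is 21 bases long, shown in capitals from its start codon to its stop codon.
AMD1 upstream frame: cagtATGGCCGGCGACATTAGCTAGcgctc
A complete frame from ATG to a stop codon within the 50 bases after the start was present in 10.2% of all 35116 promoter windows of the same length, so the match alone does not set AMD1 apart.

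ODC1 and SRM are known targets of MYC, which binds the E-box CACGTG. A search of both strands found CACGTG in windows of ODC1 and SRM and in none of the other 5 genes with a window, against 7.26% of all windows. The windows shown have the E-box in capitals. That of ODC1 (chr2:10448024-10448053, minus strand) lies before a start annotated inside the gene, and that of SRM (chr1:11060200-11060229, minus strand) lies before the gene's start. The same ODC1 promoter window holds another CACGTG just after the start inside the gene, not shown here.
ODC1 E-box: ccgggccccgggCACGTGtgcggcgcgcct
SRM E-box: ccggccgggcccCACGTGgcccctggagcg
The 250 bases before the outermost ODC1 start (chr2:10448328-10448577, minus strand) hold TGACGTC, the core of the cyclic AMP response element, and a TATAA box, both in capitals.
ODC1 promoter: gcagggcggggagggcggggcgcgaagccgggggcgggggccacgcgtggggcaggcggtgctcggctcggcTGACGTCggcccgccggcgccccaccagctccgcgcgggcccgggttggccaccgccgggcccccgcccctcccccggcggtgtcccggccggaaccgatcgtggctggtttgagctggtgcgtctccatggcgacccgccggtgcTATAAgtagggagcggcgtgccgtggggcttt
Searched on both strands, TGACGTC occurred in 3.45% and TATAA in 20.4% of all windows, and these 2 motifs cannot overlap, while TGACGTC can share letters with CACGTG. These matches describe the letters of the windows and say nothing about which factor was bound in these cells.

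Levels are given as CPM, a gene's count brought to a common depth by trimmed means within each assay. Changes are fitted log2 ratios ± SE from edgeR's quasi-likelihood test on all 24 libraries, 2 a group, and a gene was called at a Benjamini-Hochberg adjusted p under 0.05 over all genes tested. Leave-one-out fits each dropped 1 library of the lines compared. Translational efficiency (TE) is the footprint level relative to the RNA level of the same gene.

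ODC1, ornithine decarboxylase, makes putrescine and is the enzyme that antizyme removes. Its RNA and its footprints were both higher in all 3 cancer lines than in 841CON, most of all in SW620. ODC1 INPUT RNA stood at 410 and 440 CPM in HCT116, 469 and 237 CPM in HCT15 and 729 and 865 CPM in SW620, against 33.9 and 167 CPM in 841CON. ODC1 footprints stood at 243 and 351 CPM in HCT116, 147 and 239 CPM in HCT15 and 1831 and 643 CPM in SW620, against 46.1 and 43.1 CPM in 841CON. No cancer library overlapped a 841CON library in either assay, and the SW620 libraries were above all others in both. The RNA change over 841CON was 2.04 ± 0.58 in HCT116 (adjusted p = 0.0089), 1.78 ± 0.58 in HCT15 (adjusted p = 0.022) and 2.95 ± 0.60 in SW620 (adjusted p = 0.00066). The footprint change was 2.73 ± 0.61 in HCT116 (adjusted p = 0.0008), 2.11 ± 0.60 in HCT15 (adjusted p = 0.0066) and 4.79 ± 0.67 in SW620 (adjusted p = 2.2e-05). With only the compared libraries fitted, both HCT15 calls were lost (RNA 1.89, adjusted p = 0.105, and footprints 1.97, adjusted p = 0.0652). The SW620 footprint value depended on which library was kept, at 3.83 without RPF replicate 1 and 5.34 without RPF replicate 2, and was called in both fits. The TE of ODC1 was not called by edgeR in any line, at 0.69 ± 0.81 in HCT116, 0.34 ± 0.81 in HCT15 and 1.84 ± 0.82 in SW620, where the adjusted p was 0.12 and DESeq2 made a call (2.19, adjusted p = 0.0471). Those TE values rest on the 841CON INPUT pair, whose members differ several-fold for ODC1. Without replicate 2 of that pair the TE change was -0.92 in HCT116, -1.27 in HCT15 and 0.24 in SW620, none of them called, so its direction in HCT116 and HCT15 rests on that library. Without replicate 1 the SW620 TE change was 2.60 (adjusted p = 0.013) and the RNA calls of HCT116 (1.37, adjusted p = 0.0525) and HCT15 (1.17, adjusted p = 0.10) were lost. The HCT15 RNA call was also lost without HCT15 INPUT replicate 1 (1.38, adjusted p = 0.14), and its footprint call without 841CON RPF replicate 2 (2.07, adjusted p = 0.050) or HCT15 RPF replicate 2 (1.72, adjusted p = 0.051).

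AMD1, adenosylmethionine decarboxylase, supplies the aminopropyl groups for spermidine and spermine. Its footprints rose in every cancer line while its RNA rose in SW620. AMD1 footprints stood at 33.7 and 36.0 CPM in HCT116, 89.1 and 141 CPM in HCT15 and 231 and 214 CPM in SW620, against 11.1 and 7.71 CPM in 841CON. AMD1 RNA stood at 140 and 145 CPM in HCT116, 417 and 184 CPM in HCT15 and 425 and 567 CPM in SW620, against 66.9 and 247 CPM in 841CON. For footprints the 4 lines did not overlap at all, whereas for RNA the HCT116 and HCT15 values lay partly or wholly within the 841CON range. The footprint change was 1.84 ± 0.62 in HCT116 (adjusted p = 0.015), 3.57 ± 0.61 in HCT15 (adjusted p = 0.00011) and 4.52 ± 0.67 in SW620 (adjusted p = 4.1e-05), and the RNA change in SW620 was 1.64 ± 0.53 (adjusted p = 0.016). In the edgeR fit of all libraries, OAZ1 and SAT1 had positive TE changes in all 3 cancer lines, with adjusted p up to 0.066 and 0.071. In that fit AMD1 alone among the 8 genes passed the threshold in TE in all 3, each a rise: 2.01 ± 0.81 in HCT116 (adjusted p = 0.048), 2.66 ± 0.78 in HCT15 (adjusted p = 0.025) and 2.88 ± 0.82 in SW620 (adjusted p = 0.021). These 3 TE calls did not survive the loss of 841CON INPUT replicate 2, without which the changes were 0.75 (adjusted p = 0.43), 1.40 (adjusted p = 0.17) and 1.62 (adjusted p = 0.13).

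The HCT116 TE call of AMD1 was lost in 7 of the 8 fits that left out 1 library of either line (adjusted p 0.078 to 0.43), and held without 841CON INPUT replicate 1. DESeq2 did not make that call either (1.81, adjusted p = 0.0617), and with only the compared libraries fitted all 3 were lost (adjusted p = 0.0918, 0.255 and 0.075). The HCT15 call was lost in 5 (adjusted p 0.0747 to 0.166: without 841CON INPUT replicate 2, either 841CON RPF library, HCT15 INPUT replicate 2 or HCT15 RPF replicate 2) and the SW620 call in 6 (adjusted p 0.0548 to 0.128: without 841CON INPUT replicate 2, SW620 INPUT replicate 1 or any RPF library). Among the simpler calls, the HCT116 footprint rise was lost without 841CON RPF replicate 2 (adjusted p = 0.084) or HCT116 RPF replicate 2 (adjusted p = 0.0545). The SW620 RNA rise was lost without 841CON INPUT replicate 1 (0.95, adjusted p = 0.14) or SW620 INPUT replicate 2 (1.42, adjusted p = 0.095), and an HCT15 RNA rise appeared without 841CON INPUT replicate 2 (2.17, adjusted p = 0.0074). The footprint rises of AMD1 in HCT15 and SW620 were called in each of their leave-one-out fits. Footprints on the upstream frame cannot be told from those on the enzyme's frame in counts per gene.

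SRM, spermidine synthase, had 1 call by edgeR among its 9 tests against 841CON, and which line was called depended on the tool and scaling. SRM footprints stood at 417 and 402 CPM in HCT116, 378 and 577 CPM in HCT15 and 436 and 306 CPM in SW620, against 212 and 236 CPM in 841CON. SRM RNA stood at 351 and 304 CPM in HCT116, 402 and 287 CPM in HCT15 and 128 and 211 CPM in SW620, against 184 and 252 CPM in 841CON. The footprints of every cancer library lay above both 841CON libraries, while SW620 RNA overlapped 841CON. That call was the HCT15 footprint rise (1.09 ± 0.41, adjusted p = 0.031), beside changes of 0.87 ± 0.41 in HCT116 (adjusted p = 0.071) and 0.74 ± 0.43 in SW620 (adjusted p = 0.18). The HCT15 call was lost without 841CON RPF replicate 1 (1.02, adjusted p = 0.15), 841CON RPF replicate 2 (1.18, adjusted p = 0.095) or HCT15 RPF replicate 2 (0.76, adjusted p = 0.21), and by DESeq2 (0.75, adjusted p = 0.105), which called SW620 instead (1.05, adjusted p = 0.039). Library totals kept it (1.31, adjusted p = 0.011) and added calls in HCT116 (1.25, adjusted p = 0.0121) and SW620 (1.33, adjusted p = 0.0205), and the fit of the compared libraries called HCT116 (0.82, adjusted p = 0.018) but not HCT15 (0.94, adjusted p = 0.102). The TE change of SRM was 0.29 ± 0.57 in HCT116, 0.44 ± 0.57 in HCT15 and 1.10 ± 0.59 in SW620, none of them called.

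SMS, spermine synthase, was called in different assays from line to line. SMS footprints stood at 86.3 and 86.7 CPM in HCT116, 23.9 and 69.1 CPM in HCT15 and 34.2 and 10.2 CPM in SW620, against 9.29 and 15.4 CPM in 841CON. The SW620 values are 4 counts and 1 count, too few to show a difference of this size. SMS RNA stood at 114 and 130 CPM in HCT116, 45.0 and 37.3 CPM in HCT15 and 145 and 123 CPM in SW620, against 20.7 and 72.2 CPM in 841CON. Both libraries lay above 841CON in both assays for HCT116, in footprints alone for HCT15, and in RNA for SW620. The SW620 footprint change (0.93 ± 0.86, adjusted p = 0.42) does not show whether that rise was confined to RNA. The footprint change was 2.84 ± 0.55 in HCT116 (adjusted p = 0.00021) and 1.97 ± 0.54 in HCT15 (adjusted p = 0.0050), and the RNA change was 1.34 ± 0.49 in HCT116 (adjusted p = 0.035) and 1.48 ± 0.49 in SW620 (adjusted p = 0.021). The TE of SMS was called in HCT15 (2.20 ± 0.72, adjusted p = 0.043). With only the compared libraries fitted, the RNA calls of HCT116 (adjusted p = 0.104) and SW620 (adjusted p = 0.0907) were lost. That fit also lost the HCT15 calls in footprints (adjusted p = 0.147) and TE (adjusted p = 0.488). The HCT15 TE call was lost by DESeq2 (adjusted p = 0.0688) and with library totals (adjusted p = 0.063) too. Of the SMS calls against 841CON, only the HCT116 footprint rise held in every leave-one-out fit. Without 841CON INPUT replicate 1 the RNA change was 0.79 in HCT116 (adjusted p = 0.18) and 0.84 in SW620 (adjusted p = 0.16), and the HCT116 TE change, 1.50 with all libraries, was 2.06 and called (adjusted p = 0.010). Without replicate 2 of that pair the same TE change was 0.29 (adjusted p = 0.753). The HCT116 RNA call was also lost without either HCT116 INPUT library (adjusted p = 0.078 and 0.13) and the SW620 one without SW620 INPUT replicate 1 (adjusted p = 0.11). The HCT15 footprint call was lost without HCT15 RPF replicate 2 (0.99, adjusted p = 0.175) or 841CON RPF replicate 1 (1.62, adjusted p = 0.0815). The HCT15 TE call was lost in 6 of its 8 leave-one-out fits, and held without 841CON INPUT replicate 1 or HCT15 RPF replicate 1. The change was 1.00 without 841CON INPUT replicate 2 (adjusted p = 0.30) and 1.22 without HCT15 RPF replicate 2 (adjusted p = 0.26), and the other 4 had adjusted p of 0.0684 to 0.197.

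**Figure D1:**
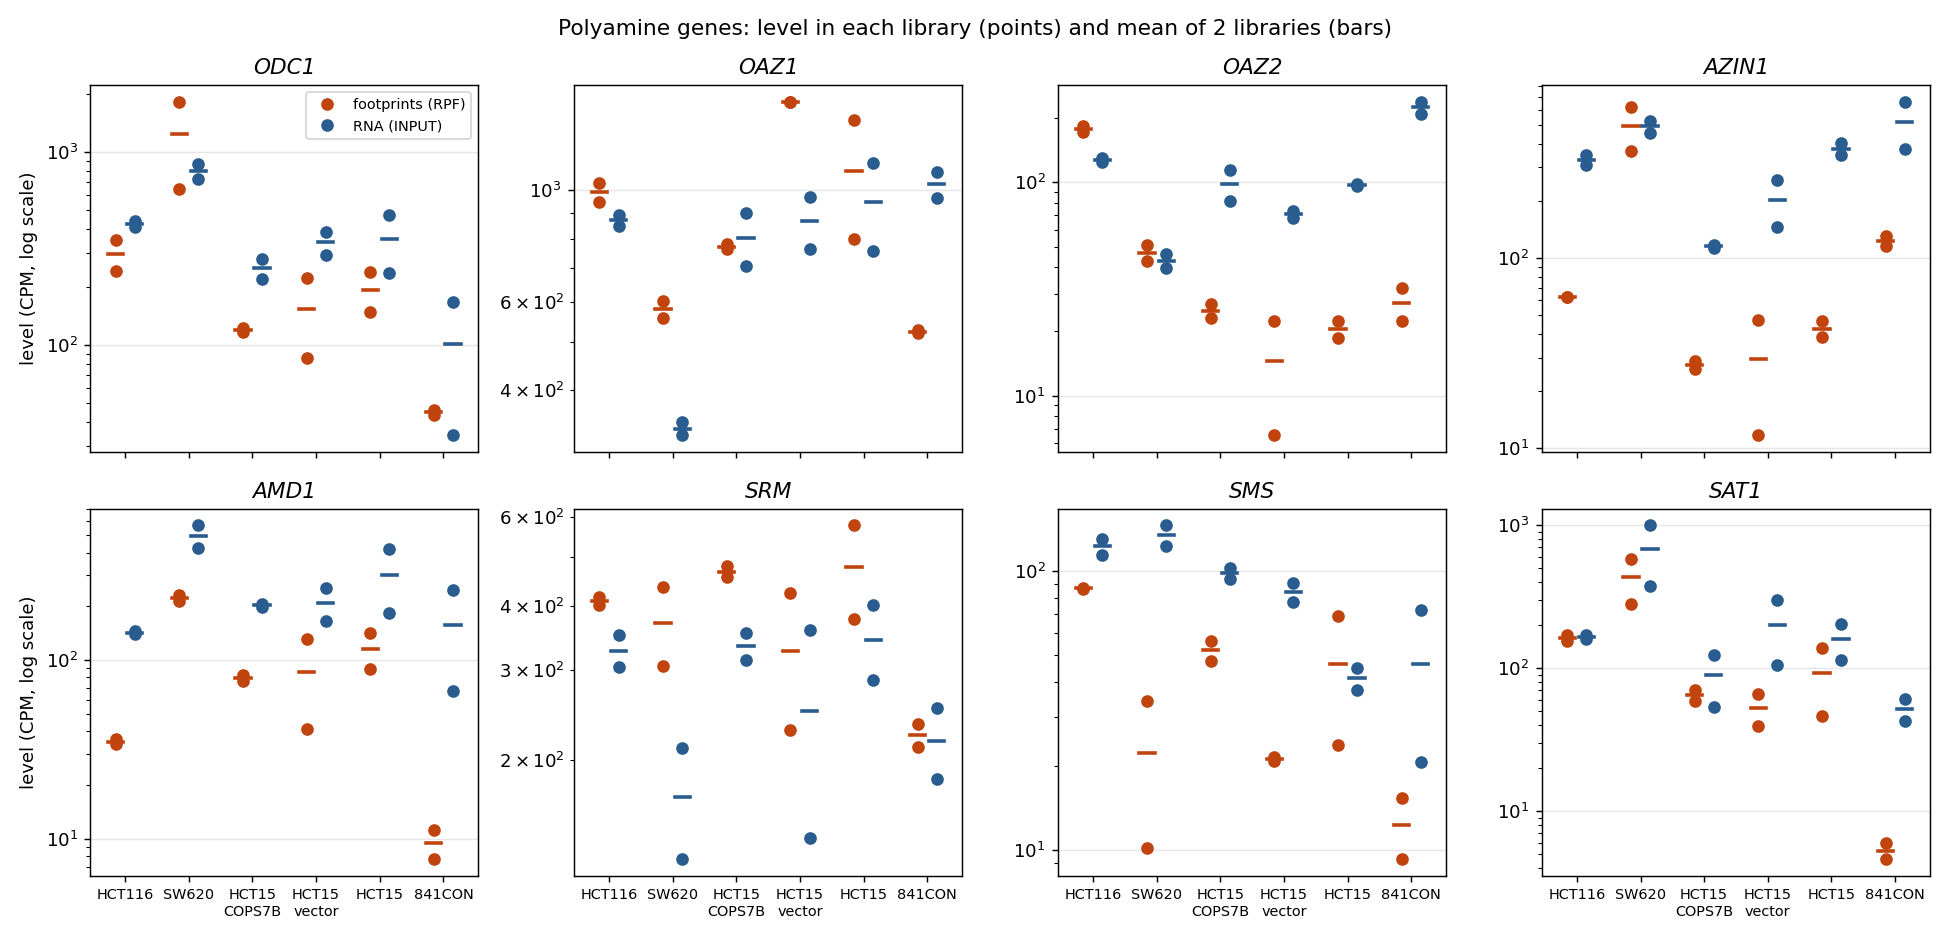
Levels of the 8 genes in each library, with 1 panel a gene and footprints and INPUT RNA side by side for each population, as CPM on a log axis. Points are single libraries and short bars are the means of 2. ODC1 and SAT1 footprints are highest in SW620 and lowest in 841CON, and OAZ2 footprints are highest in HCT116.

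OAZ1, antizyme 1, is the more abundant and general of the antizymes, and its full-length product needs the change of reading frame. Footprints after the slip site are not resolved in counts per gene, so the values below count ribosomes over the whole transcript. OAZ1 RNA stood at 890 and 849 CPM in HCT116, 1132 and 757 CPM in HCT15 and 326 and 346 CPM in SW620, against 963 and 1086 CPM in 841CON. OAZ1 footprints stood at 947 and 1032 CPM in HCT116, 1378 and 798 CPM in HCT15 and 556 and 602 CPM in SW620, against 526 and 519 CPM in 841CON. SW620 RNA lay far below that of the other 3 lines, HCT116 RNA just below 841CON, and HCT15 RNA overlapped 841CON. Footprints were high in HCT116 and HCT15, with SW620 just above 841CON. The SW620 RNA fell by 1.61 on the log2 scale (SE 0.31, adjusted p = 0.00039), the equivalent of 3.05-fold, and its footprint change was 0.15 ± 0.31 (adjusted p = 0.79). The footprint rise was 0.92 ± 0.30 in HCT116 (adjusted p = 0.013) and 1.06 ± 0.30 in HCT15 (adjusted p = 0.0074), with RNA changes of -0.24 and -0.12 that were not called. The TE of OAZ1 rose by 1.16 ± 0.43 in HCT116 (adjusted p = 0.033) and by 1.75 ± 0.44 in SW620 (adjusted p = 0.010), and was 1.17 ± 0.43 in HCT15, short of the threshold at an adjusted p of 0.066. The compared libraries alone lost the SW620 TE call (1.84, adjusted p = 0.0761). They also lost the HCT15 footprint call (0.91, adjusted p = 0.118).

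The RNA and TE calls of OAZ1 in SW620 held in every leave-one-out fit. The HCT116 TE call was lost in 7 of 8 (adjusted p 0.0621 to 0.115, with changes from 1.03 to 1.22), all but the fit without 841CON INPUT replicate 1. Its HCT116 footprint call was lost without either 841CON RPF library (adjusted p = 0.0624 and 0.0655) or HCT116 RPF replicate 2 (adjusted p = 0.069). The HCT15 footprint call was lost without HCT15 RPF replicate 1 (0.61, adjusted p = 0.14), and the HCT15 TE change ran from 0.73 to 1.52 over such fits, the highest being without HCT15 RPF replicate 2 and called (adjusted p = 0.0225).

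OAZ2, antizyme 2, shares the frameshift of OAZ1. Its RNA was lower in HCT15 and SW620 than in 841CON, while its footprints in HCT116 were 6.49-fold higher. OAZ2 RNA stood at 130 and 124 CPM in HCT116, 95.7 and 98.4 CPM in HCT15 and 45.9 and 39.5 CPM in SW620, against 239 and 210 CPM in 841CON. OAZ2 footprints stood at 185 and 172 CPM in HCT116, 22.5 and 18.7 CPM in HCT15 and 42.8 and 51.0 CPM in SW620, against 32.0 and 22.3 CPM in 841CON. All 3 cancer lines lay below 841CON in RNA, whereas HCT116 footprints stood far above those of all other populations and HCT15 footprints overlapped those of 841CON. The SW620 footprint values are 5 counts in each library. The RNA change was -0.82 ± 0.37 in HCT116 (adjusted p = 0.085), -1.21 ± 0.37 in HCT15 (adjusted p = 0.016) and -2.40 ± 0.40 in SW620 (adjusted p = 0.0001). The footprint change was 2.70 ± 0.40 in HCT116 (adjusted p = 1.5e-05), and neither the HCT15 value of -0.43 nor the SW620 value of 0.76 was called. The TE of OAZ2 rose by 3.52 ± 0.54 in HCT116 (adjusted p = 6.3e-05) and by 3.16 ± 0.68 in SW620 (adjusted p = 0.0043), against 0.78 ± 0.54 in HCT15 (adjusted p = 0.35). Both TE calls held without any 1 library, and the HCT116 call is the only TE call among the 8 genes to hold under every alternative run. The HCT116 RNA change was called by DESeq2 (-0.81, adjusted p = 0.0373) and with only the compared libraries (-0.84, adjusted p = 0.0198). Library totals (-0.82, adjusted p = 0.095) and the compared libraries alone (-1.05, adjusted p = 0.108) lost the HCT15 RNA call. The HCT15 RNA call was lost without 841CON INPUT replicate 1 (-1.01, adjusted p = 0.0549) or either HCT15 INPUT library (-0.97, adjusted p = 0.142, and -1.23, adjusted p = 0.0513).

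AZIN1, the antizyme inhibitor, resembles ornithine decarboxylase without its activity and frees the enzyme from antizyme. Its RNA was not called in any line, but its footprints were higher in SW620 and lower in HCT15 than in 841CON. AZIN1 footprints stood at 62.5 and 62.3 CPM in HCT116, 38.6 and 46.5 CPM in HCT15 and 624 and 367 CPM in SW620, against 130 and 116 CPM in 841CON. AZIN1 RNA stood at 348 and 308 CPM in HCT116, 348 and 402 CPM in HCT15 and 457 and 527 CPM in SW620, against 374 and 664 CPM in 841CON. In footprints no line overlapped another, and in RNA only HCT116 lay wholly below 841CON. The footprint change was 2.02 ± 0.46 in SW620 (adjusted p = 0.0021), -1.52 ± 0.45 in HCT15 (adjusted p = 0.0080) and -0.98 ± 0.45 in HCT116 (adjusted p = 0.066). The TE of AZIN1 rose by 2.10 ± 0.62 in SW620 (adjusted p = 0.025) and was -1.05 ± 0.61 in HCT15 and -0.31 ± 0.61 in HCT116, neither of them called. With only the compared libraries fitted, the SW620 TE call was lost (2.19, adjusted p = 0.0761). With the close replicate pairs summed to 1 library each, the AZIN1 footprint calls of HCT15 (-1.67) and SW620 (1.90) were lost. Leaving out 1 library at a time lost the SW620 TE call in 6 of 8 fits (adjusted p 0.0596 to 0.121), with the lowest changes, 1.62 and 1.65, without 841CON INPUT replicate 2 and SW620 RPF replicate 1. It held without 841CON INPUT replicate 1 or SW620 RPF replicate 2. The footprint calls of SW620 and HCT15 held in each such fit, and the HCT116 footprint change was called by DESeq2 (-1.19, adjusted p = 0.0129), with only the compared libraries (-1.03, adjusted p = 0.0255) and without either 841CON INPUT library (adjusted p = 0.047 and 0.0453).

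SAT1, spermidine/spermine acetyltransferase, opens polyamine catabolism, and its translation is known to respond to polyamine. Its footprints and RNA were higher in all 3 cancer lines than in 841CON. SAT1 footprints stood at 155 and 171 CPM in HCT116, 138 and 46.0 CPM in HCT15 and 282 and 581 CPM in SW620, against 5.94 and 4.62 CPM in 841CON, which are 16 and 6 counts. SAT1 RNA stood at 160 and 170 CPM in HCT116, 114 and 205 CPM in HCT15 and 997 and 376 CPM in SW620, against 61.2 and 42.9 CPM in 841CON. Every cancer library lay above both 841CON libraries in both assays. The footprint change was 4.90 ± 0.72 in HCT116 (adjusted p = 1.4e-05), 4.06 ± 0.71 in HCT15 (adjusted p = 0.00013) and 6.29 ± 0.77 in SW620 (adjusted p = 5.2e-06). The RNA change was 1.68 ± 0.59 in HCT116 (adjusted p = 0.028), 1.63 ± 0.59 in HCT15 (adjusted p = 0.036) and 3.74 ± 0.63 in SW620 (adjusted p = 0.00012). With only the compared libraries fitted, the HCT15 RNA call was lost (1.80, adjusted p = 0.0795). The TE of SAT1 rose by 3.21 ± 0.90 in HCT116 (adjusted p = 0.0073), and the changes of 2.42 ± 0.90 in HCT15 and 2.56 ± 0.92 in SW620 had adjusted p of 0.071 and 0.057. In HCT15 the footprint change was 3.07 without HCT15 RPF replicate 1 and 4.66 without HCT15 RPF replicate 2. The footprint calls of all 3 lines, the SW620 RNA call and the HCT116 TE call held without any 1 library. The HCT116 RNA call was lost without 841CON INPUT replicate 2 (1.43, adjusted p = 0.15) or either HCT116 INPUT library (adjusted p = 0.0653 and 0.0804). The HCT15 RNA call was lost without 841CON INPUT replicate 2 (1.38, adjusted p = 0.16) or HCT15 INPUT replicate 2 (1.16, adjusted p = 0.195). TE in HCT15 ran from 1.44 to 3.03 over the leave-one-out fits and was called without HCT15 RPF replicate 2 (3.03, adjusted p = 0.028). TE in SW620 ran from 1.95 to 3.46 over such fits and was called without SW620 INPUT replicate 1 (3.46, adjusted p = 0.026), and with all libraries it was called by DESeq2 (2.94, adjusted p = 0.0166) and with library totals (2.92, adjusted p = 0.0389).

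**Figure D2:**
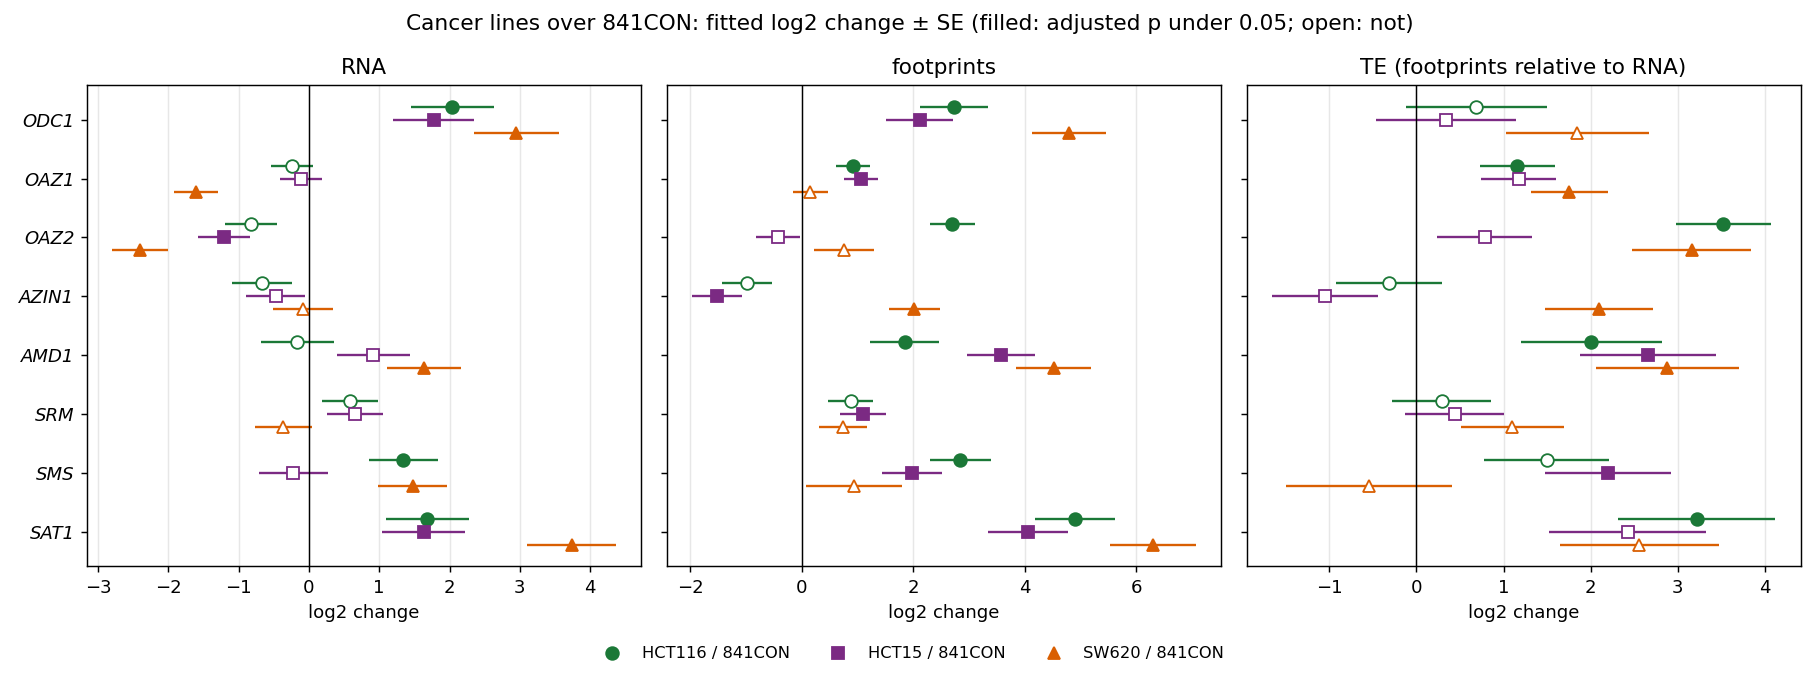
Fitted log2 change ± SE of each gene in HCT116, HCT15 and SW620 over 841CON, for RNA, footprints and TE (2 libraries a group). Filled symbols passed an adjusted p of 0.05. AMD1 is the gene with 3 filled TE symbols, and OAZ2 shows RNA to the left of 0 with HCT116 and SW620 TE far to the right. The TE symbols of OAZ1 and SAT1 also lie to the right of 0 in all 3 lines, some of them open.

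Counted over the 8 genes, all but 1 of the footprint calls against 841CON were rises, against a background in which a large share of all genes was called. In HCT116, 3 of the 8 were called in RNA (all higher, where 40.1% of all genes tested were called and 19% were called higher), 6 in footprints (all higher, 59.3% called and 22.6% higher) and 4 in TE (all higher, 45.6% called and 14.9% higher). In HCT15, 3 were called in RNA (2 higher and 1 lower, 35.4% called, 16.8% higher and 18.6% lower), 7 in footprints (6 higher and 1 lower, 49.9% called, 28.8% higher and 21.1% lower) and 2 in TE (both higher, 16.6% called and 11.5% higher). In SW620, 6 were called in RNA (4 higher and 2 lower, 44.4% called, 21.8% higher and 22.6% lower), 4 in footprints (all higher, 38% called and 18.6% higher) and 4 in TE (all higher, 18.4% called and 8.25% higher). No TE call among the 8 was a fall. The median TE change of the 8 genes was 1.33 in HCT116, 0.98 in HCT15 and 1.97 in SW620, where the median of all genes tested was -0.60, 0.29 and -0.31. With library totals in place of trimmed-mean scaling the TE median of all genes was -0.37, 0.15 and 0.03, and no called gene among the 8 changed its direction. The median footprint change of the 8 was 2.27, 1.53 and 1.47 in the same order, against -0.25, 0.27 and -0.13 over all genes. The number of members called in TE was 2 to 5 in HCT116, 0 to 2 in HCT15 and 2 to 5 in SW620 when each library was left out in turn. With the 4 close replicate pairs summed to 1 library each, 1 TE call was left in HCT116, that of OAZ2, and 0 in HCT15 and SW620.

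The position of each gene's footprint-to-RNA ratio among the genes tested in the same population needs no reference line. It also depends on the ratios of the other genes there, so it need not follow the TE change. OAZ2 stood at percentile 73.3 in HCT116 and 71.7 in SW620, but at 9.99 in HCT15 and 12 in 841CON. AZIN1 stood at percentile 35.9 in HCT116, 5.25 in HCT15 and 67.5 in SW620, against 19.0 in 841CON. Its ratio itself was lower in HCT116 (0.190) than in 841CON (0.237). OAZ1 was at percentile 67.5 in HCT116, 59.4 in HCT15 and 89.4 in SW620, against 35.6 in 841CON. SRM stayed in the upper range throughout, with its highest percentile, 94.8, in SW620 and its lowest, 59.2, in 841CON. AMD1 lay below the middle in every population, at percentile 38.3 in HCT116, 8.37 in COPS7B cells and 8.75 in 841CON. The CPM ratio behind the AMD1 percentile was 0.245 in HCT116, 0.383 in HCT15 and 0.448 in SW620, against 0.0601 in 841CON, where single library pairings ran from 0.0312 to 0.167.

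**Figure D3:**
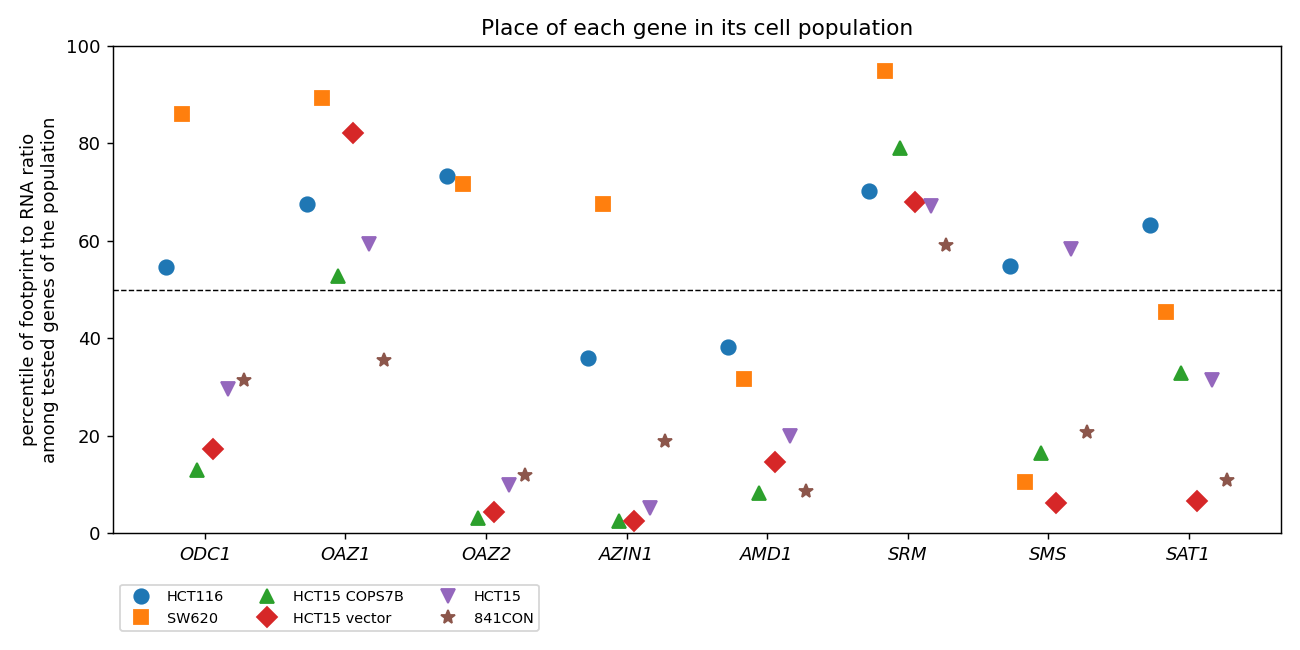
Percentile of each gene's footprint-to-RNA ratio among all genes tested in the same population, by cell population. SRM lies above the middle line throughout and AMD1 below it, while OAZ2 and AZIN1 each have populations near the bottom and 1 or 2 above the middle line.

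ODC1, its antizyme OAZ1 and the inhibitor AZIN1 act on each other as proteins, so their counts were also set against each other within each library, which needs no scaling between libraries. The counts are not divided by transcript length, so only the change of a ratio between populations can be read, not its size. The ratio of ODC1 to OAZ1 footprints was 0.257 and 0.340 in HCT116, 0.107 and 0.299 in HCT15 and 3.29 and 1.07 in SW620, against 0.0875 and 0.0831 in 841CON. The same ratio in INPUT RNA was 0.460 and 0.519 in HCT116, 0.415 and 0.313 in HCT15 and 2.24 and 2.50 in SW620, against 0.0352 and 0.154 in 841CON. Of these 4 lines SW620 was highest and 841CON lowest in both assays, with no overlap between the cancer lines and 841CON. In footprints the HCT15 vector libraries, at 0.0572 and 0.148, lay on either side of 841CON. The COPS7B libraries, at 0.154 and 0.156, lay above it. The ratio of AZIN1 to OAZ1 footprints was 0.0660 and 0.0604 in HCT116, 0.0280 and 0.0583 in HCT15 and 1.12 and 0.610 in SW620, against 0.248 and 0.223 in 841CON. In that ratio 841CON lay between SW620 above it and HCT116 and HCT15 below it. The ratio of OAZ2 to OAZ1 footprints was 0.195 and 0.167 in HCT116, 0.0163 and 0.0234 in HCT15 and 0.0769 and 0.0847 in SW620, against 0.0607 and 0.0430 in 841CON, whereas in RNA all cancer libraries (0.0845 to 0.147) lay below 841CON (0.249 and 0.194). These ratios are descriptions and were not tested.

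**Figure D4:**
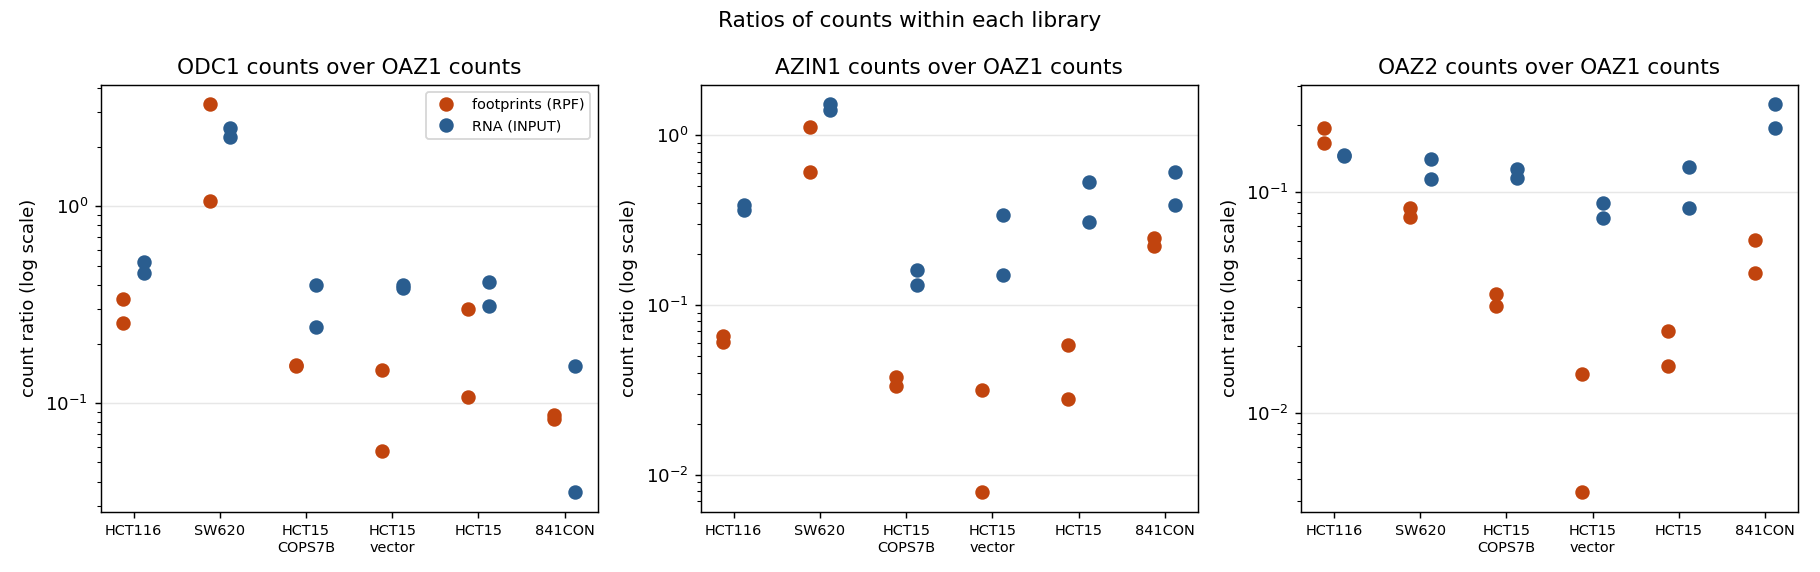
Ratios of counts within each library on a log axis, for footprints and INPUT RNA, by cell population. Each point is 1 library. The ODC1 to OAZ1 ratio is above 1 in the 4 SW620 libraries alone, and the AZIN1 to OAZ1 footprint ratio of 841CON lies below SW620 and above all other populations.

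The 3 cancer lines also differed from each other. An F test over HCT116, HCT15 and SW620, which does not use 841CON as a group, called 5 of the 8 genes in RNA (45.9% of all genes tested were called), 6 in footprints (66.3%) and 3 in TE (52.8%). The share of the 8 genes called was thus below that of all genes in TE and near it in footprints. AZIN1 footprints (adjusted p = 6.2e-06) and OAZ2 footprints (adjusted p = 1.2e-05) had the smallest values. For ODC1 footprints the mean ± SD was 297 ± 76.0 CPM in HCT116, 193 ± 64.5 CPM in HCT15 and 1237 ± 840 CPM in SW620 (n = 2 libraries each, adjusted p = 0.0010). ODC1 RNA was not called among the lines (adjusted p = 0.17), and SRM was not called in RNA, footprints or TE (adjusted p = 0.086, 0.74 and 0.43). The TE of OAZ2 (adjusted p = 0.0011), AZIN1 (adjusted p = 0.0013) and SMS (adjusted p = 0.040) differed among the lines, and that of AMD1 (adjusted p = 0.58) and SAT1 (adjusted p = 0.64) was not shown to.

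The order of footprint levels over all 6 populations differed from gene to gene. For ODC1 it ran SW620, HCT116, HCT15, vector, COPS7B and 841CON, where HCT15, vector and COPS7B values overlapped their neighbours and the other steps did not. For SAT1 it ran SW620, HCT116, HCT15, COPS7B, vector and 841CON, with overlap among the 3 HCT15 populations. For OAZ1 the vector cells were highest and 841CON lowest, and HCT15 overlapped HCT116. OAZ2 had HCT116 at the top, followed by SW620, with 841CON and the 3 HCT15 populations below and partly overlapping. For SRM, HCT15 was highest and 841CON lowest, and all neighbours in the order overlapped except COPS7B cells and HCT116. For SMS, HCT116 was highest and stood clear of all others, and the COPS7B, HCT15, SW620 and vector values overlapped their neighbours. For AMD1 the order was SW620, HCT15, vector, COPS7B, HCT116 and 841CON, with overlap among the HCT15 populations only, and for AZIN1 it was SW620, 841CON, HCT116, HCT15, vector and COPS7B, with overlap again among the HCT15 populations only.

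For COPS7B overexpression, the comparison named in the series title, edgeR called 1 of the 8 genes in footprints and none in RNA or TE, and that share is below the 17.3% of all genes tested that were called in footprints. OAZ1 footprints stood at 762 and 781 CPM in COPS7B cells, against 1490 and 1496 CPM in vector cells. The 2 pairs did not overlap, and the parental HCT15 libraries, at 1378 and 798 CPM, spanned most of the distance between them. The change of COPS7B over vector was -0.95 ± 0.30 (adjusted p = 0.035), or 1.94-fold lower, where 9.42% of all genes tested were called lower. The call was lost without any 1 of the 4 RPF libraries, with adjusted p of 0.169 and 0.0933 without vector replicate 1 and 2 and 0.2 and 0.18 without COPS7B replicate 1 and 2, while the change stayed between -0.97 and -0.87. With library totals in place of trimmed-mean scaling it was -0.69 (adjusted p = 0.128) and SMS was the called gene, and the footprint median of all genes was 0.32 where the scaled one was 0.05. OAZ1 RNA was 901 and 705 CPM in COPS7B cells and 761 and 969 CPM in vector cells, which overlapped (-0.11 ± 0.30, adjusted p = 0.90).

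None of the 8 genes was called in RNA for COPS7B over vector, where 17.5% of all genes were called, with 1 of the 8 at an unadjusted p under 0.05 and 0 called by DESeq2. None was called in TE, where 0% of all 9542 genes tested were called, with 0 of the 8 at an unadjusted p under 0.05 and 0 by DESeq2. SMS footprints were 56.1 and 47.7 CPM in COPS7B cells, against 20.8 and 21.5 CPM in vector cells, a change of 1.29 ± 0.52 (adjusted p = 0.096) that was called by DESeq2 (1.43, adjusted p = 0.043), with library totals (1.56, adjusted p = 0.0467) and with only the compared libraries (1.29, adjusted p = 0.00333). It was not called in any leave-one-out fit (adjusted p 0.116 to 0.314). OAZ2 footprints were 23.2 and 26.8 CPM in COPS7B cells and 6.51 and 22.4 CPM in vector cells, and the change of 0.83 ± 0.42 (adjusted p = 0.19) was 1.93 and called without vector RPF replicate 2 (adjusted p = 0.010). ODC1 footprints were 117 and 122 CPM in COPS7B cells, within the range of the vector cells at 85.2 and 221 CPM. AZIN1 RNA was 117 and 113 CPM in COPS7B cells, below both vector libraries at 258 and 146 CPM, with a change of -0.82 ± 0.43 (adjusted p = 0.24). AMD1, SRM and SAT1 footprints changed by -0.09 ± 0.53, 0.52 ± 0.40 and 0.29 ± 0.58, none of them called. SAT1 RNA was 124 and 53.9 CPM in COPS7B cells, against 298 and 106 CPM in vector cells (-1.20 ± 0.57, adjusted p = 0.18).

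The vector cells were set against parental HCT15 to show what carrying the vector went with. Only the vector files of this comparison list reads in lines that name no gene, so vector and kind of file cannot be told apart. None of the 8 genes was called by edgeR in RNA (0.67% of all genes called, 0 of the 8 at an unadjusted p under 0.05), in footprints (10.5% called, 1 of the 8 at an unadjusted p under 0.05) or in TE (0.175% called, 1 of the 8 at an unadjusted p under 0.05), and DESeq2 called 0 in each. SMS stood farthest from no change: its RNA was 90.6 and 77.3 CPM in vector cells, against 45.0 and 37.3 CPM in parental HCT15, and its footprints were 20.8 and 21.5 CPM in vector cells, against 23.9 and 69.1 CPM in parental cells. RNA was thus higher and footprints lower in the vector cells, with a TE change of -2.19 ± 0.72 (adjusted p = 0.21). Without HCT15 RPF replicate 1, SMS was called in footprints (-1.70, adjusted p = 0.026) and in TE (-2.73, adjusted p = 0.020). Without vector RPF replicate 2, AZIN1 (-1.86, adjusted p = 0.038) and OAZ2 (-1.64, adjusted p = 0.046) footprints were called, the remaining vector library having 11.7 and 6.51 CPM of these genes. OAZ1 footprints, 1490 and 1496 CPM in vector cells against 1378 and 798 CPM in parental cells, changed by 0.46 ± 0.30 (adjusted p = 0.34).

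To place ODC1 and OAZ1 among all genes, the pattern of log2(CPM + 1) over the 12 group means of both assays was compared with that of 6809 genes with at least 50 counts on average. The 12 points share libraries and depth in part, so the correlations are descriptions. ENSG00000101773 was the gene most like ODC1 (Pearson r = 0.953), and SAT1 had rank 4 at 0.937. AMD1 had rank 156 at 0.755, and OAZ1 had an r of -0.32 with ODC1. The gene most like OAZ1 was ENSG00000161013 (r = 0.948), and AZIN1 was among the least like it at -0.54.

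In the RefSeq annotation of GRCh38.p14 the genes lie apart from each other, on 7 chromosomes. ODC1 spans 10439968 to 10448327 of chromosome 2, OAZ1 2269486 to 2273488 of chromosome 19, OAZ2 64687574 to 64703281 of chromosome 15 and AMD1 110814617 to 110895713 of chromosome 6. SRM spans 11054589 to 11060018 of chromosome 1, and SMS (21940709 to 21994837) and SAT1 (23783173 to 23786210) are both on the X chromosome. AZIN1 is on chromosome 8.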

How the data were processed

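The deposited files are tables of raw counts per Ensembl gene, 1 per library, as the authors left them. Per the submitters' processing notes, cutadapt 3.5, STAR 2.7.9, HTSeq 2.0.2 and the build GRCh38 were used. The sources used here do not give strand, counted feature, annotation or multi-mapping settings, so counts of genes with pseudogenes or overlapping genes are uncertain. The 8 COPS7B and vector files have 5 lines that name no gene. They held 53.6% to 76.0% of listed INPUT reads and 80.5% to 90.8% of RPF reads, and were left out.

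Tests used the 20426 genes listed in all tables. These held 100% of RPF gene counts but 53.8% to 88.9% of INPUT gene counts, lowest in SW620 (58.8% and 53.8%). Depth for CPM and tests was taken from the counts in these genes. A mean per group (12 groups of 2) was fitted with edgeR 4.0.16 (R 4.3.3) to genes passing its filter at a minimum count of 10 in both assays, with trimmed-mean (TMM) scaling within each assay, which takes most genes as unchanged, so a shift common to all genes cannot be seen. TE was tested as the assay-by-line interaction, for genes averaging at least 10 INPUT counts in the lines compared. Genes were called at a two-sided Benjamini-Hochberg adjusted p under 0.05. CPM was computed from the same scaling. The rule for the 8 members uses no measured value, but it and the tests were chosen with earlier results of these data known. Deviations of same-numbered INPUT and RPF libraries correlated at 0.22 in the vector cells and at -0.12 to 0.02 in the other 5 populations, so replicate numbers were not used as pairs. The procedure was also run on simulated counts, with changes planted in HCT116 footprints of well-counted genes. That run does not cover genes with few counts or the uneven replicate pairs. DESeq2 1.42.0 and the other alternatives are in the closing section, and intervals and counts cover these libraries only.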

Additional observations from a re-analysis of the deposited data

Results flagged for a closer look

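An F test of the difference among HCT116, HCT15 and SW620 called 45.9% of all genes tested in RNA, 66.3% in footprints and 52.8% in TE. Against that background it marked 14 values of 7 of the 8 genes. In footprints these were AZIN1 (adjusted p = 6.18e-06), OAZ2 (1.19e-05), ODC1 (0.00103), AMD1 (0.00338), SAT1 (0.0101) and OAZ1 (0.0377). AZIN1 and ODC1 were highest in SW620 and OAZ2 in HCT116. In RNA they were OAZ1 (adjusted p = 0.00162), SAT1 (0.00484), OAZ2 (0.00894), SMS (0.0192) and AMD1 (0.0272), with SW620 lowest for both antizymes and highest for SAT1, SMS and AMD1. In TE they were OAZ2 (adjusted p = 0.00112), AZIN1 (0.00134) and SMS (0.0402), where HCT15 was lowest for the antizyme and its inhibitor and highest for SMS. Groups of 2 libraries are too small for a check of single outlying libraries.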

How the results depend on the processing

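No member's change reversed its direction where it was called. Over all alternatives, 1688 values stayed on their side of the threshold, 130 lost and 30 gained a call. The count of members called, given with all libraries in the report, moved by over 1.5 times as follows. With the 4 close replicate pairs summed, it was 0 for RNA and 1 for TE in HCT116, 0 for RNA, 2 for footprints and 0 for TE in HCT15, 0 for TE in SW620, 0 for COPS7B footprints and 1 for RNA among the cancer lines. With only the compared libraries fitted, it was 0 for RNA, 3 for footprints and 0 for TE in HCT15, 1 for TE in SW620 and 2 for COPS7B footprints. HCT15 TE had 1 member with scaling over all 24 libraries, with no TMM scaling, by DESeq2 and with the replicate block, and 0 with the replicate block within line. SW620 TE had 2 with the block within line. COPS7B footprints had 2 by DESeq2 and 0 with no filter on low counts. Crossing the SW620 numbers, an alternative chosen after seeing the data, left 3 in SW620 TE, which is within that limit. Among single RNA calls, summing the close pairs lost ODC1, SMS and SAT1 in HCT116, ODC1, SAT1 and OAZ2 in HCT15, and SMS and AMD1 in SW620. Among footprint calls it lost OAZ1 and AMD1 in HCT116 and AZIN1 in SW620. It also lost ODC1, OAZ1, SRM, SMS and AZIN1 footprints in HCT15, and OAZ1 footprints for COPS7B. Of the single TE calls, the replicate block lost AMD1 in HCT116 (adjusted p = 0.0592) and SMS in HCT15 (0.0604) and gained SAT1 in SW620 (0.0362). The replicate block within line lost all 3 of AMD1 (0.118 in HCT116, 0.0777 in HCT15 and 0.0642 in SW620), SMS in HCT15 (0.134) and AZIN1 in SW620 (0.0936), and neither of these blocks changed any other call.

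With each library left out, counts for RNA, footprints and TE ranged from 1 to 3, 4 to 7 and 2 to 5 in HCT116, 1 to 3, 4 to 7 and 0 to 2 in HCT15, and 4 to 6, 4 to 4 and 2 to 5 in SW620. They ranged from 0 to 0, 0 to 1 and 0 to 0 for COPS7B, 0 to 0, 0 to 2 and 0 to 1 for the vector, and 2 to 5, 4 to 7 and 2 to 3 among the cancer lines. Where this left 1 library in a group, its spread was taken from the other groups. The cause of these changes was not tested, beyond the fewer libraries that summing and leaving out imply. SW620 footprint depth limits SMS (4 counts and 1 count) and OAZ2 (5 and 5 counts).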
